A study of Monascus purpureus with 6 samples.

Results

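The enzymes and transporters by which *Monascus purpureus* takes up and assimilates ammonium and nitrate were described in 46 assembled transcripts (unigenes), of 20381 unigenes tested and 24261 assembled. The rule used annotation text and mean level. The KEGG description had to name glutamate dehydrogenase, glutamine synthetase, glutamate synthase, nitrate reductase or nitrite reductase, or the Pfam description had to name the Ammonium Transporter Family, and the mean FPKM over the libraries had to be at least 0.1. FPKM scales the fragments of a unigene by its length and by the mapped fragments of the library, so levels of different unigenes can be compared per length. It found 60 unigenes with such text, of which 10 had no FPKM listed and 4 had a mean below 0.1. Those without FPKM were 6 isoforms of an ammonium transporter assembly, 3 nitrate reductase fragments of 154 to 683 bases and 1 folylpolyglutamate synthase fragment, and the 4 low ones were isoforms of ammonium transporter assemblies. The lowest mean inside the limit was 0.112 FPKM and the highest outside was 0.08 FPKM.

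It compared mycelia of the wild-type isolate *M. purpureus* MP2022 harvested on day 1 of fermentation, either from medium amended with taurine at 4 g/L (3 libraries) or from medium without it (the control, 3 libraries). The question of the comparison was which transcripts differ with taurine, a sulfonic acid that carries an amino group. All libraries come from a single soil isolate, and the labels do not say whether the 3 libraries of a group were separate flasks, so p-values measure the spread between these libraries. Whole mycelium was sequenced, so fewer cells of a kind and less RNA per cell cannot be told apart. Sodium nitrate is named, beside peptone, yeast and malt, for a seed step before the fermentation. The nitrogen source of the fermentation medium itself was not given in those methods.

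Filamentous fungi take up ammonium through Amt/Mep channels of the plasma membrane. Nitrate enters through its own transporters, is reduced to nitrite by the molybdenum enzyme nitrate reductase (niaD) and to ammonium by nitrite reductase (niiA), and the genes of this route often lie side by side in a cluster in *Aspergillus*. Ammonium is then fixed into glutamate by the NADP-specific glutamate dehydrogenase, or into glutamine by glutamine synthetase, from which glutamate synthase returns glutamate, while the NAD-specific glutamate dehydrogenase mainly runs in the direction that releases ammonium. In *Aspergillus*, these genes answer to the nitrogen source through global regulators such as AreA and NmrA.

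The total FPKM over all unigenes lay between 797244 in control replicate 2 and 865009 in taurine replicate 2, and FPKM does not tell the depth of a library. The best protein match was to *M. purpureus* for 84.1% of the 18810 unigenes with a match and for 45 of the 46 members. Control replicate 2 was the highest library for 8 of the 13 members with a mean of at least 10 FPKM. The values of the abundant enzymes and transporters are therefore given with and without it. The members together took 0.277% of the FPKM total in control replicate 2, against 0.123% to 0.151% in the other 5 libraries. A single unigene, the NADP-specific glutamate dehydrogenase, held 1092.51 of the 2207.84 FPKM of the members in control replicate 2. In the other 5 libraries it was at 205.37 to 316.11 FPKM.

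No member passed the test for taurine. With limma on log2(FPKM + 1), 0 of 46 members had an adjusted p at or under 0.05 (Benjamini-Hochberg over all tested unigenes), against 0.0393% of all tested unigenes, and 0 of 46 had an unadjusted p under 0.05, against 2.66% of all. The lowest unadjusted p among members was 0.0665 and the lowest adjusted p was 0.999. The median log2 fold change was 0.01 over the members and 0.02 over all tested unigenes, with 25 members above 0 and 21 below. The 3 taurine libraries all lay above the 3 control libraries for 1 member (2.17%, against 3.78% of all tested unigenes) and all below for 3 members (6.52%, against 2.62%). The text rule also caught unigenes that are doubtful members. Set aside as doubtful were those with a protein kinase, Major Facilitator Superfamily (membrane transporter) or haloacid dehalogenase domain, or a folylpolyglutamate synthase entry. The other 31 of the 46 are called here members with their own domain or name. That grouping did not look for the domain of the enzyme itself. Among those 31, the median log2 fold change was -0.0019.

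**Figure D1:**
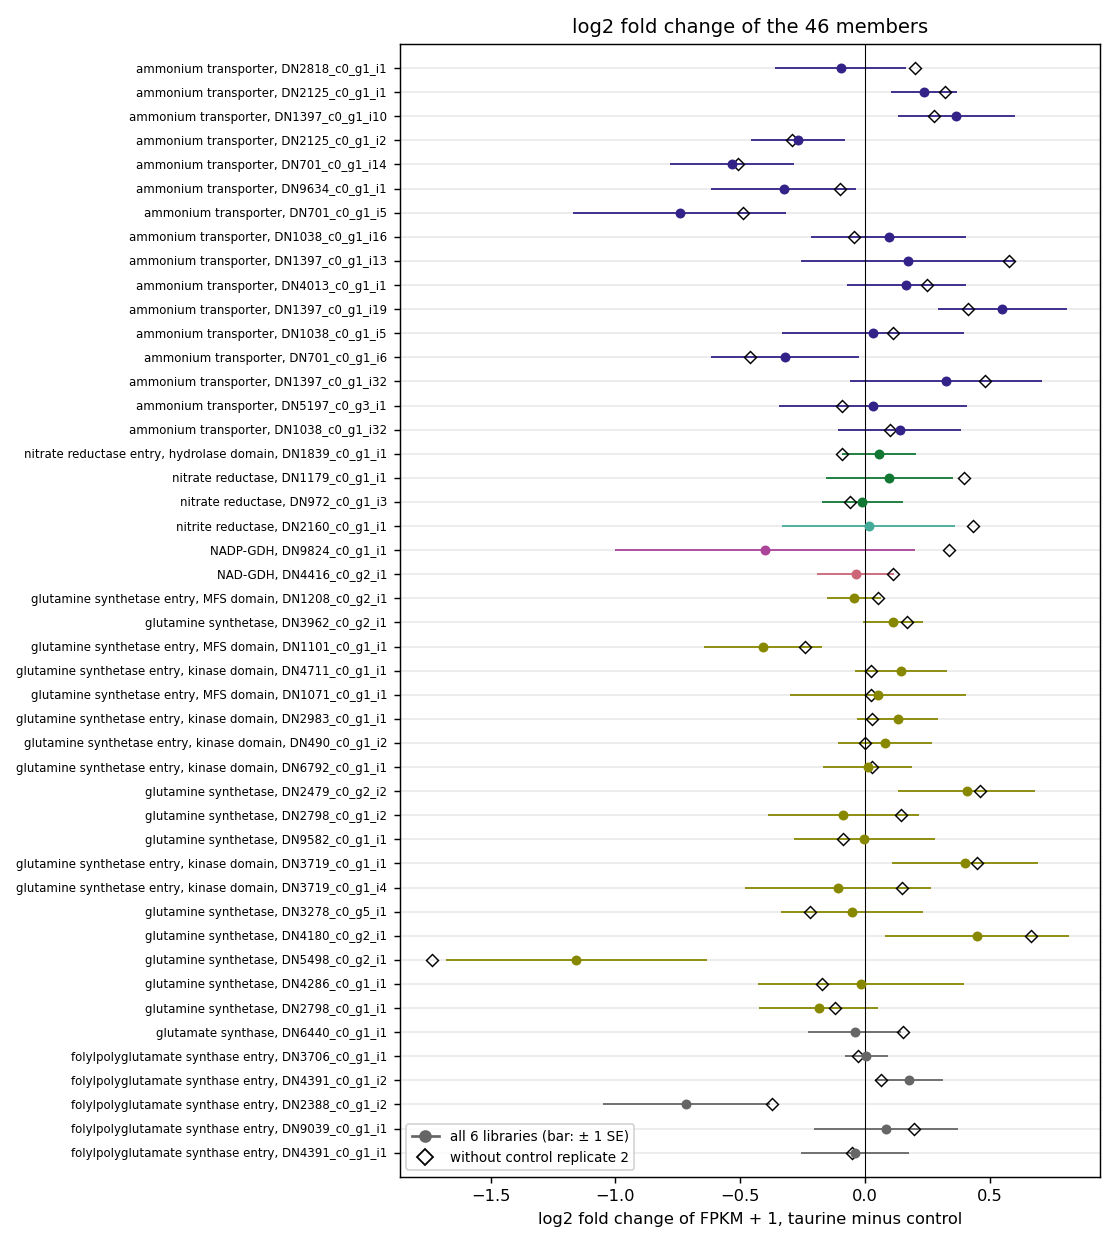
log2 fold change of FPKM + 1 (taurine minus control) for the 46 members, grouped by enzyme from ammonium transporters at the top to glutamate synthase entries at the bottom. Filled points with bars are the limma estimates ± 1 SE over 6 libraries and open diamonds are the estimates without control replicate 2. The filled points run from -1.16 to 0.55, and the diamonds of the NADP-specific glutamate dehydrogenase (NADP-GDH) and nitrite reductase lie at 0.34 and 0.43.

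Uptake of ammonium was represented by 16 unigenes from 8 assembled genes, 10 of them with a log2 fold change above 0 and 6 below. The most abundant was DN2818_c0_g1_i1 (best match MPDQ_007170, 3056 bases), an Amt family ammonium transporter. Its level was 17.42, 30.71 and 14.71 FPKM in control replicates 1, 2 and 3, and 19.62, 16.56 and 19.71 FPKM in taurine replicates 1, 2 and 3. Control replicate 2 was the highest library, and the taurine values lay between those of the 3 controls. The log2 fold change was -0.10 (SE 0.26, 95% interval -0.73 to 0.54), and 0.20 without control replicate 2.

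The second transporter locus, DN2125_c0_g1 (best match MPDQ_006733), had 2 isoforms whose values lay in opposite directions. The shorter isoform DN2125_c0_g1_i1 had 8.19, 9.52 and 7.44 FPKM in the controls and 9.05, 10.57 and 10.47 FPKM with taurine (log2 fold change 0.24, SE 0.13). It is named here after its values were seen. The longer isoform DN2125_c0_g1_i2 had 2.32, 2.26 and 2.55 FPKM in the controls and 2.03, 1.56 and 1.84 FPKM with taurine, so all 3 taurine libraries were below all controls (log2 fold change -0.27, SE 0.19, unadjusted p = 0.205 by limma). Isoforms of 1 gene share fragments, so how fragments were split between them bears on each value, and its part was not tested. The sum of both isoforms was 10.76 ± 0.92 FPKM in the controls (SD, n = 3) and 11.84 ± 0.66 FPKM with taurine (SD, n = 3), with p = 0.2 by the two-sided exact permutation test, whose smallest possible p is 0.1 here.

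The largest group of ammonium transporter unigenes came from 3 assemblies of different libraries, DN701_c0_g1, DN1397_c0_g1 and DN1038_c0_g1, which share their best matches, MPDQ_001471 and MPDQ_001472, and have long isoforms of 5263 to 5731 bases. They held 10 of the 16 tested transporter unigenes. By the library suffix of its identifier, DN701_c0_g1 came from control replicate 3. By the same suffix, DN1397_c0_g1 came from taurine replicate 2 and DN1038_c0_g1 from taurine replicate 3. In DN701_c0_g1, summed over its 4 isoforms with FPKM listed, the level was 4.32, 5.65 and 4.27 FPKM in the controls and 2.39, 1.51 and 3.1 FPKM with taurine. In DN1397_c0_g1, summed over its 5 isoforms, it was 2.03, 3.88 and 3.82 FPKM in the controls and 6.22, 4.29 and 4.85 FPKM with taurine. The groups did not overlap in either assembly, and the direction was opposite (exact permutation p = 0.1 for each, the smallest possible, and 0.2 after adjustment). The lower one carries a control suffix and the higher one a taurine suffix. DN1038_c0_g1, summed over its 5 isoforms, was at 2.17, 1.17 and 1.04 FPKM in the controls and 1.6, 1.4 and 2.74 FPKM with taurine. Its groups overlapped (exact permutation p = 0.5). In the limma fit on isoforms summed to assembled genes, DN701_c0_g1 had a log2 fold change of -0.81 (SE 0.24, unadjusted p = 0.0132, adjusted p = 0.999) and DN1397_c0_g1 of 0.55 (SE 0.25, unadjusted p = 0.0666, adjusted p = 0.999). DN701_c0_g1 was the only 1 of 35 assembled genes of the members with an unadjusted p under 0.05 in that fit, against 2.46% of all assembled genes.

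Over all 3 assemblies together the level was 8.52, 10.7 and 9.13 FPKM in the controls and 10.21, 7.2 and 10.69 FPKM with taurine. The groups overlapped, and the log2 difference of the sums was -0.03 (exact permutation p = 0.8). These assemblies share their best matches, so fragments of the same locus may have been split among them, and the part of this in the opposite directions was not tested. Whether the source library of an assembly bears on its direction was not tested either. Of their single isoforms, DN701_c0_g1_i14 was below the controls in every taurine library (2.53, 2.27 and 1.77 FPKM in the controls, 0.77, 1.24 and 1.67 FPKM with taurine). DN1397_c0_g1_i19 was the only member above the controls in every taurine library, from 0.26, 0 and 0.41 FPKM to 0.95, 0.59 and 0.8 FPKM. Both isoforms were low, and 12 of the values of the 10 isoforms were listed at 0.

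**Figure D2:**
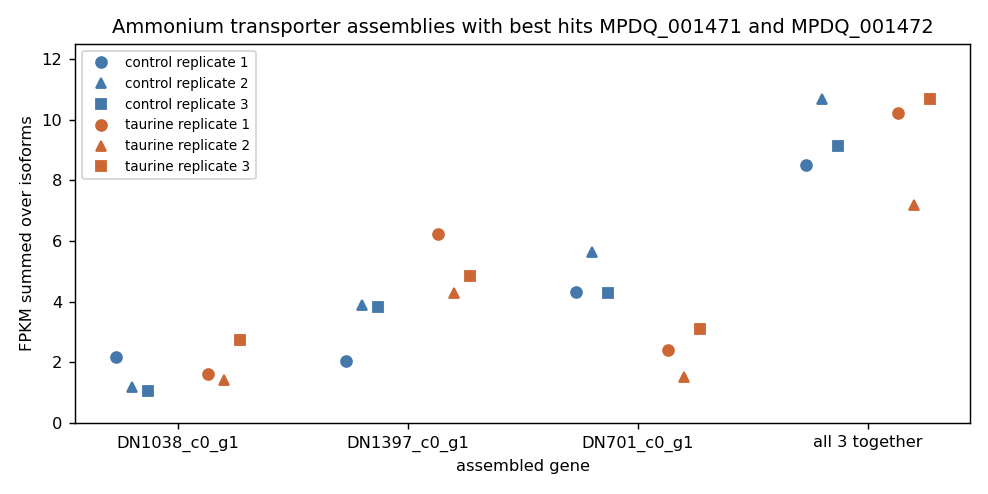
FPKM summed over the isoforms of each of 3 ammonium transporter assemblies that share their best matches, and over all 3 together, with 1 point per library. DN701_c0_g1 lies lower with taurine and DN1397_c0_g1 higher, with no overlap, whereas the sums over all 3 overlap between 7.2 and 10.7 FPKM.

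The other 3 transporter unigenes matched Amt1 or MEP2, a high-affinity ammonium permease in yeast, and had means of 0.25 to 1.61 FPKM. Over all 16 transporter unigenes, the summed level was 43.8 ± 11.4 FPKM in the controls (SD, n = 3) and 41.9 ± 4.0 FPKM with taurine (SD, n = 3), with an exact permutation p of 0.9. The log2 difference of these sums was -0.04, and 0.16 without control replicate 2.

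Reduction of nitrate was represented by 2 unigenes that matched the *Monascus* niaD gene, DN1179_c0_g1_i1 (3331 bases) and DN972_c0_g1_i3 (3065 bases), both with the molybdenum cofactor dimerisation domain of nitrate reductase. DN1179_c0_g1_i1 was at 25.91, 52.76 and 29.84 FPKM in the controls and at 36.24, 35.26 and 39.45 FPKM with taurine (log2 fold change 0.10, SE 0.25). The log2 fold change was 0.40 without control replicate 2 and -0.10 without control replicate 1. Control replicate 2 was the highest library, while the other 2 controls were below every taurine library. DN972_c0_g1_i3 was at 17.71, 17.97 and 22.65 FPKM in the controls and at 21.45, 21.09 and 15.58 FPKM with taurine (log2 fold change -0.01, SE 0.16, and -0.06 without control replicate 2). It was not raised in control replicate 2, where the ratio of DN1179_c0_g1_i1 to DN972_c0_g1_i3 was 2.94 against 1.32 to 2.53 in the other libraries. Both unigenes have the same best match, and whether they are separate genes was not tested.

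Nitrite reductase, which forms ammonium from nitrite, was a single unigene, DN2160_c0_g1_i1 (best match MPDQ_003841, 3613 bases). It was at 31.26, 85.76 and 40.27 FPKM in the controls and at 50.51, 46.7 and 47.5 FPKM with taurine. The 3 taurine libraries were close to each other, above control replicates 1 and 3 and below control replicate 2. The log2 fold change was 0.01 (SE 0.35, 95% interval -0.83 to 0.86) over all libraries. It was 0.43 (SE 0.12) without control replicate 2 and -0.28 (SE 0.34) without control replicate 1.

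The ratio of nitrite reductase to the sum of the 2 niaD unigenes was 0.717, 1.21 and 0.767 in the controls and 0.876, 0.829 and 0.863 with taurine (exact permutation p = 1). A nitrate transporter entry, DN717_c0_g1_i1 (best match MPDQ_003839, chosen after its values were seen for its locus number close to that of the nitrite reductase match), had 12.27, 28.31 and 12.15 FPKM in the controls and 15.15, 14.04 and 15.8 FPKM with taurine. It thus had its highest value in control replicate 2, as the nitrite reductase did, and the other 2 controls were below every taurine library. Other unigenes with close locus numbers were not highest in control replicate 2. DN9930_c0_g1_i1 (best match MPDQ_003842) and DN454_c0_g1_i1 (best match MPDQ_003838) were lowest there, at 4.43 and 23.34 FPKM.

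NADP-specific glutamate dehydrogenase, the enzyme that fixes ammonium into glutamate, was the most abundant of the classes when only unigenes with their own domain or name were summed. Its only unigene, DN9824_c0_g1_i1 (best match MPDQ_001921, 1877 bases), lay above 98.6% of the tested unigenes in mean FPKM. It was at 205.37, 1092.51 and 268.92 FPKM in the controls and at 316.11, 261.91 and 315.7 FPKM with taurine. Control replicate 2 was 3.99 times the mean of the other 5 libraries, which lay between 205.37 and 316.11 FPKM. The control mean was 522 ± 495 FPKM (SD, n = 3) and the taurine mean 298 ± 31.2 FPKM (SD, n = 3). The log2 fold change was -0.40 (SE 0.60), and its 95% interval, from -1.86 to 1.05, allowed anything from 0.276 to 2.07 times the control. Without control replicate 2 the log2 fold change was 0.34, with an unadjusted p of 0.0924 by limma, and without control replicate 1 it was -0.87.

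NAD-specific glutamate dehydrogenase, DN4416_c0_g2_i1 (4075 bases), was at 104.15, 140.2 and 101.57 FPKM in the controls and at 123.66, 97.48 and 113.87 FPKM with taurine (log2 fold change -0.04, SE 0.15, 95% interval -0.41 to 0.34, and 0.11 without control replicate 2). Control replicate 2 was again the highest library, at 1.3 times the mean of the others. The ratio of the NADP-specific to the NAD-specific enzyme, which are known for opposite directions of the reaction, was 1.97, 7.79 and 2.65 in the controls and 2.56, 2.69 and 2.77 with taurine (exact permutation p = 0.9). The ratio thus stayed within 1.97 to 2.77 in 5 libraries and was 7.79 in control replicate 2.

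**Figure D3:**
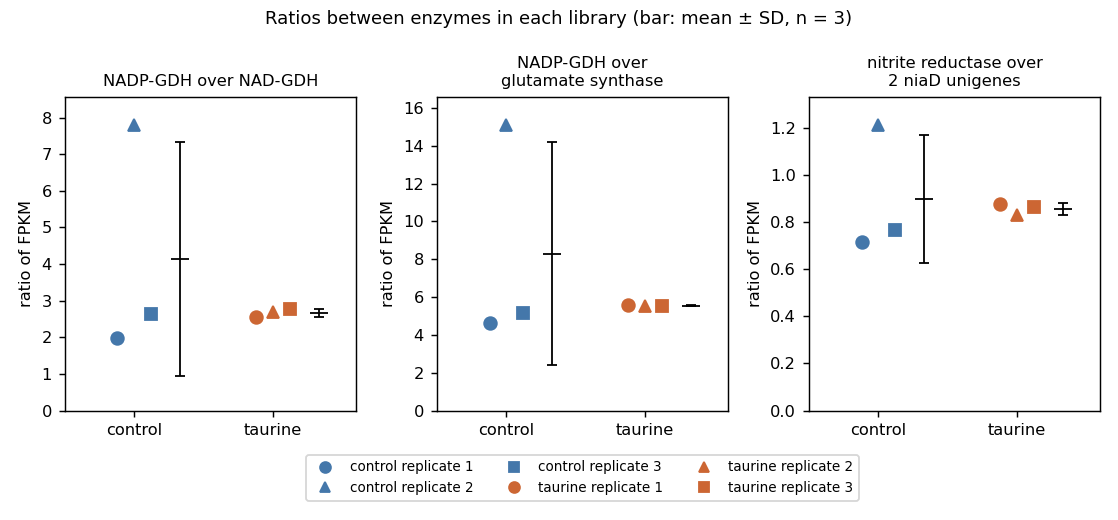
Ratios of FPKM between enzymes in each library, with the mean ± SD of 3 libraries beside the points. All 3 ratios have their highest value in control replicate 2 (7.79, 15.1 and 1.21), and the taurine libraries lie close to each other.

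Glutamate synthase, which makes glutamate from glutamine, was represented by DN6440_c0_g1_i1 (7189 bases, NADH type), at 44.42, 72.38 and 51.9 FPKM in the controls and at 56.66, 47.43 and 57.08 FPKM with taurine (log2 fold change -0.04, SE 0.19, and 0.15 without control replicate 2). Control replicate 2 was the highest library, and the taurine values lay within the range of the controls. The ratio of NADP-specific glutamate dehydrogenase to glutamate synthase was 5.58, 5.52 and 5.53 with taurine and 4.62, 15.1 and 5.18 in the controls (exact permutation p = 1).

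Glutamine synthetase was the class with the least certain members. Its name was in the KEGG text of 18 unigenes from 16 assembled genes. Only 9 of them carried neither a protein kinase nor a Major Facilitator Superfamily domain. The most abundant of those 9, DN3962_c0_g2_i1 (best match MPDQ_001464, with the catalytic domain), was at 16.12, 17.79 and 15.34 FPKM in the controls and at 19.8, 15.44 and 18.37 FPKM with taurine (log2 fold change 0.11, SE 0.12, and 0.17 without control replicate 2). The groups overlapped, and control replicate 2 did not stand apart. The 9 unigenes summed to 24.6 ± 0.68 FPKM in the controls (SD, n = 3) and to 25.3 ± 3.1 FPKM with taurine (SD, n = 3; exact permutation p = 0.9).

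The highest value of the class by text belonged to DN1208_c0_g2_i1 (best match MPDQ_005157, 3590 bases), at 453.57, 550.65 and 448.16 FPKM in the controls and 481.17, 446.98 and 473.54 FPKM with taurine (log2 fold change -0.05, SE 0.11, and 0.05 without control replicate 2). Its KEGG text names glutamine synthetase, but its Pfam entry is the Major Facilitator Superfamily, a family of membrane transporters. The Pfam column lists 1 domain per unigene, so whether this transcript also holds a glutamine synthetase domain was not tested. DN1101_c0_g1_i1, with the same best match and the same Pfam entry, was at 11.29, 20.49 and 17.63 FPKM in the controls and 9.73, 12.01 and 14.07 FPKM with taurine (log2 fold change -0.41, SE 0.24, and -0.24 without control replicate 2), where control replicate 1 lay among the taurine values. With all 18 unigenes of the text counted, glutamine synthetase summed to 548 ± 59.8 FPKM in the controls (SD, n = 3) and was above the NADP-specific glutamate dehydrogenase in 5 of 6 libraries. With only the 9 unigenes counted, it was below every other class in each library.

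Another 4 of the 9 unigenes matched a second glutamine synthetase locus, MPDQ_002603. They were short (269 to 728 bases) and low, with 9 of their 24 values listed at 0. The lowest unadjusted p of all members belonged to DN5498_c0_g2_i1, a 269-base fragment of this locus, named after its values were seen, which was at 2.97, 0 and 1.8 FPKM in the controls and listed at 0 in the 3 taurine libraries.

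The remaining members were caught by text and carry other domains. Fungal protein kinase domains were found in 6 unigenes listed with glutamine synthetase, whose means were 1.1 to 6.83 FPKM (sum 17.28 ± 1.22 FPKM in the controls and 18.93 ± 1.23 FPKM with taurine, SD, n = 3, exact permutation p = 0.3). Folylpolyglutamate synthase, an enzyme of folate metabolism whose name contains the words glutamate synthase, accounted for 5 unigenes. Of these, DN3706_c0_g1_i1 was at 23.47, 20.79 and 21.06 FPKM in the controls and 21.76, 21.19 and 22.52 FPKM with taurine, and DN4391_c0_g1_i2 was at 13.06, 9.51 and 11.38 FPKM in the controls and 13.72, 12.77 and 11.99 FPKM with taurine. Both carry a ligase domain and had overlapping groups.

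DN2388_c0_g1_i2, also with a folylpolyglutamate synthase entry but with an acetyltransferase domain, was below the controls in every taurine library, at 3.47, 8.66 and 3.98 FPKM in the controls and 1.99, 2.74 and 3.34 FPKM with taurine (log2 fold change -0.72, SE 0.34, unadjusted p = 0.0744 by limma). The most abundant unigene with nitrate reductase in its KEGG text, DN1839_c0_g1_i1, has a haloacid dehalogenase-like hydrolase domain as its Pfam entry. Whether this transcript also holds a nitrate reductase domain was not tested. It was at 41.78, 29.57 and 39.89 FPKM in the controls and 35.45, 42.33 and 37.14 FPKM with taurine, with the lowest value in control replicate 2.

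**Figure D4:**
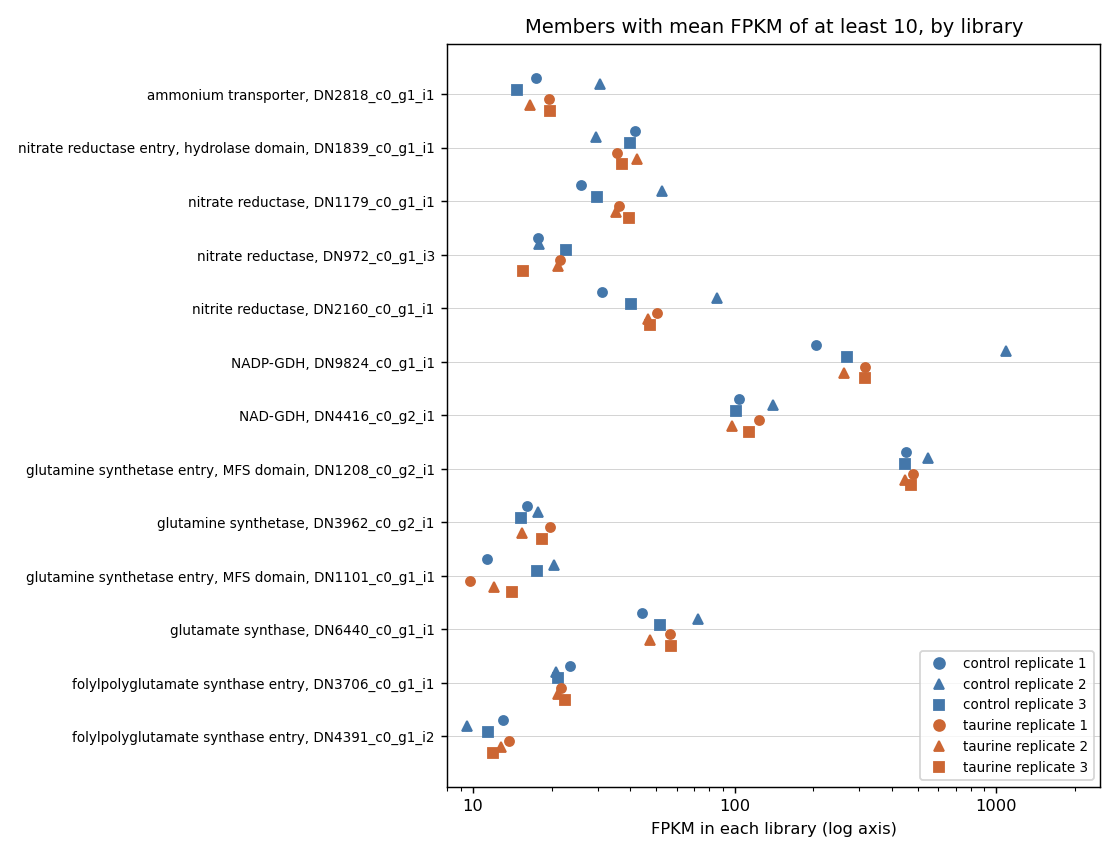
FPKM (log axis) of the 13 members with a mean of at least 10 in each of the 6 libraries, with blue symbols for the controls, orange for taurine and a triangle for replicate 2. The blue triangle lies to the right of the other points for 8 of the 13, farthest for NADP-GDH at 1092.51 FPKM.

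The order of the classes by summed level, over unigenes with their own domain or name, put the NADP-specific glutamate dehydrogenase first in each of the 6 libraries and the NAD-specific enzyme after it. Nitrate reductase (43.62 to 70.73 FPKM), glutamate synthase (44.42 to 72.38 FPKM) and nitrite reductase (31.26 to 85.76 FPKM) changed places between libraries. The order of these classes could not be told. The ammonium transporters (35.81 to 56.78 FPKM) were below nitrate reductase and glutamate synthase in each library. They were below nitrite reductase in every library except control replicate 1. Glutamine synthetase came last in each library, at 21.72 to 27.38 FPKM. That place rests on leaving out DN1208_c0_g2_i1, whose domains were not settled. With all 18 unigenes of the text, the class summed to 501.75 to 617.36 FPKM. Over all members by text, no summed class differed between the groups beyond the spread of the libraries, with exact permutation p from 0.8 to 1 in the 7 classes.

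Control replicate 2 was the highest library for 8 of the 13 members with a mean of at least 10 FPKM (61.5%), against 25.1% of the 5904 unigenes at that level in the whole table. Its value divided by the mean of the other 5 libraries had a median of 0.911 and a 95th percentile of 1.84 over those 5904 unigenes. Among members it was 3.99 for NADP-specific glutamate dehydrogenase, 1.98 for nitrite reductase, 1.74 for the ammonium transporter DN2818_c0_g1_i1, 1.58 for niaD DN1179_c0_g1_i1, 1.41 for glutamate synthase and 1.3 for NAD-specific glutamate dehydrogenase. For the glutamine synthetase entries with a Major Facilitator Superfamily domain it was 1.58 (DN1101_c0_g1_i1) and 1.2 (DN1208_c0_g2_i1). NADP-specific glutamate dehydrogenase lay above 99.1% of the 5904 unigenes in this ratio, nitrite reductase above 95.9% and the ammonium transporter above 94.0%. niaD DN1179_c0_g1_i1 and DN1101_c0_g1_i1 lay above 92.1% each, and glutamate synthase above 88.9%. NAD-specific glutamate dehydrogenase lay above 85.9% and DN1208_c0_g2_i1 above 81.0%. The 5 remaining members with a ratio near or below 1 were niaD DN972_c0_g1_i3, the glutamine synthetase DN3962_c0_g2_i1, both folylpolyglutamate synthase entries and the hydrolase entry. The control SD of log2(FPKM + 1) exceeded the taurine SD for 11 of 13 members (84.6%) and for 79.7% of the 5904 unigenes.

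**Figure D5:**
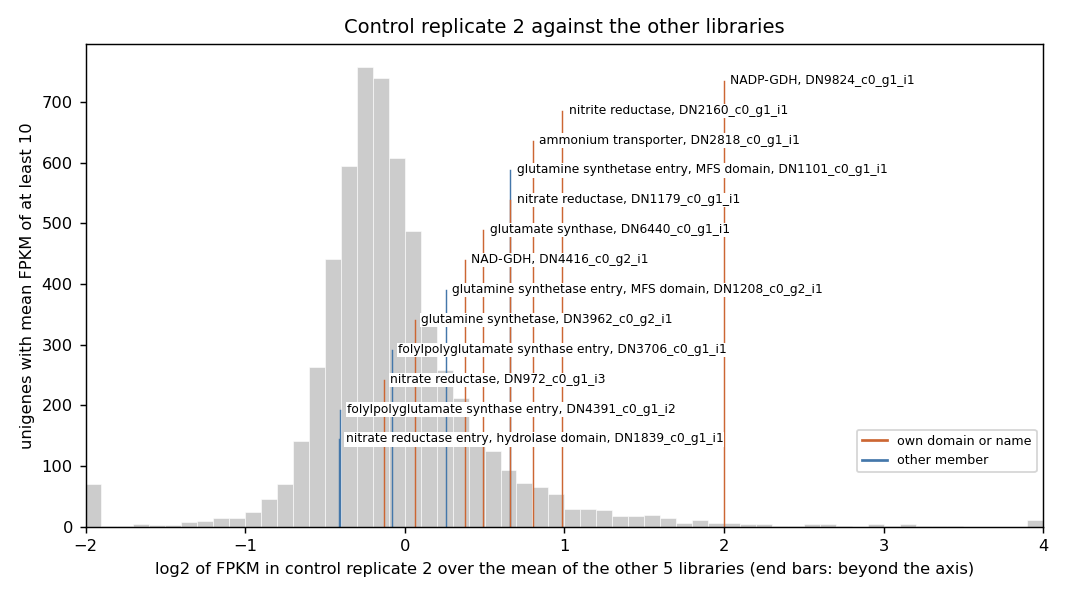
Distribution over 5904 unigenes (grey bars) of the log2 ratio of FPKM in control replicate 2 to the mean of the other 5 libraries, with a vertical line for each of the 13 members with a mean of at least 10 FPKM. NADP-GDH lies farthest right, above 99.1% of the unigenes, and the height of a line only makes room for its label.

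Without control replicate 2, 3 members had an unadjusted p under 0.05 with a higher level under taurine (6.52%, against 2.36% of all tested unigenes) and 1 with a lower level (2.17%, against 2.08%), and none passed the adjusted threshold. The 3 higher members were niaD DN1179_c0_g1_i1 (log2 fold change 0.40, SE 0.09, unadjusted p = 0.0079, adjusted p = 0.703), nitrite reductase (0.43, SE 0.12, unadjusted p = 0.0194, adjusted p = 0.879) and the transporter isoform DN2125_c0_g1_i1 (0.32, SE 0.10, unadjusted p = 0.0317, adjusted p = 0.879). The lower one was the 269-base fragment DN5498_c0_g2_i1. This fit rests on 2 control libraries. Control replicate 2 was singled out because it was the highest library for 8 of the 13 members with a mean of at least 10 FPKM. It was the highest control for the 3 higher members, so leaving it out raised their log2 fold changes by itself. Their share is therefore no separate result about taurine. Without control replicate 1 instead, the log2 fold change was -0.10 for niaD DN1179_c0_g1_i1 and -0.28 for nitrite reductase. With sample quality weights, by which limma weights each library by how well it fits its group, 5 members had an unadjusted p under 0.05 (10.9%, against 10.1% of all tested unigenes), among them DN2125_c0_g1_i1 at a log2 fold change of 0.35 (SE 0.09) and DN1101_c0_g1_i1 at -0.48 (SE 0.17), and none passed the adjusted threshold.

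Other genes of nitrogen metabolism were taken from 8 lists by annotation text, 288 unigenes in all, of which 0 had an adjusted p at or under 0.05 and 3 an unadjusted p under 0.05 by limma (1.04%, against 2.66% of all tested unigenes). For nitrate and nitrite transport, 3 unigenes were tested (median log2 fold change -0.09), each with its highest value in control replicate 2. The most abundant of them, DN1489_c0_g1_i1, had a zinc cluster domain of transcription factors. It was at 26.63 to 36.12 FPKM in the controls and 26.75 to 35.99 FPKM with taurine. DN942_c0_g1_i2, with the same best match and the same domain, had a mean of 3.05 FPKM. For the molybdenum cofactor that nitrate reductase needs, 18 unigenes had a median of 0.03, led by a subunit of respiratory complex I (DN3104_c0_g1_i1, log2 fold change 0.09, SE 0.07) whose domain is shared with molybdopterin enzymes.

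Among regulators, the text found 3 unigenes (median 0.21), 2 of them nitrogen permease regulators at 11.27 to 20.81 FPKM, and the third a glutathione S-transferase entry, DN7783_c0_g1_i1, which was at 43.99, 15.56 and 42.23 FPKM in the controls and 34.26, 41.89 and 34.91 FPKM with taurine. Here control replicate 2 was the lowest library. The 14 unigenes of the NmrA-like family, to which the repressor of AreA belongs along with other proteins, had a median of 0.04, and the most abundant, DN2305_c0_g1_i1, was also lowest in control replicate 2, at 68.28 FPKM against 120.8 to 133.21 FPKM in the other libraries.

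The breakdown of urea and purines (75 unigenes, median -0.01) was led by DN2640_c0_g2_i1, a urease entry with a high mobility group box (log2 fold change -0.02, SE 0.09). Amidases and amino acid breakdown (115 unigenes, median 0.04) were led by ornithine aminotransferase DN9820_c0_g1_i1 (-0.0037, SE 0.07). Users of glutamine as an amide donor (41 unigenes, median 0.04) were led by DN1319_c0_g1_i1, the enzyme that makes glucosamine 6-phosphate for chitin (0.02, SE 0.09). The aminotransferases (22 unigenes, median 0.04) were led by the mitochondrial aspartate aminotransferase DN2925_c0_g2_i1 (-0.01, SE 0.08), at 465.95 to 490.91 FPKM in all libraries. Beside the 3 of 3 for nitrate and nitrite transport, control replicate 2 was highest for 7 of 18 molybdenum cofactor, 0 of 3 regulator and 7 of 14 NmrA-like unigenes. It was highest for 25 of 75 urea and purine, 34 of 115 amidase and breakdown, 6 of 41 glutamine user and 9 of 22 aminotransferase unigenes.

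The 3 list unigenes with an unadjusted p under 0.05, a smaller share than that of all tested unigenes, are named after their values were seen. The cytoplasmic aspartate aminotransferase DN9683_c0_g1_i1, which passes amino groups between glutamate and aspartate, was at 66.84, 84.41 and 97.73 FPKM in the controls and 113.5, 106.32 and 111.07 FPKM with taurine, so the groups did not overlap (log2 fold change 0.42, SE 0.14, unadjusted p = 0.0224, adjusted p = 0.999). The others were DN1544_c0_g1_i2, an entry for a Golgi complex subunit and a proline pathway enzyme (0.39, SE 0.14), and DN9502_c0_g1_i1, a 307-base urea symporter entry that was listed at 0 in 2 controls.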

How the data were processed

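RNA was sequenced on the DNBSEQ platform and assembled de novo. Bowtie2 2.2.5 and RSEM 1.2.8 are named in the submitters' processing notes, as is DESeq without a version, and the assembler with its settings is not stated there. The deposited table holds FPKM per unigene and library as computed by the authors, with annotation text and group means. It also holds the authors' own comparisons (fold changes, p-values and calls in 12 columns), which were not used. No per-library column was left out.

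Testing covered the 20381 unigenes whose FPKM averaged 0.1 or more over the 6 libraries, with limma 3.58.1 (R 4.3.3, lmFit and eBayes with trend) on log2(FPKM + 1) in a two-sided test, and p-values were adjusted over all of them by the Benjamini-Hochberg method. A fold change on this scale understates that of low unigenes. Class sums and ratios of FPKM were compared by exact permutation of the 6 libraries in Python 3.11.15 (scipy 1.17.1), where 3 against 3 libraries cannot give a p below 0.1. These are p-values before adjustment, and after adjustment within the families of classes, best matches and ratios all were 0.72 or above. The scripts were tested on simulated data. Intervals of 95% come from the limma fit. FPKM keeps no counts, so no counting interval is given.

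The named unigenes were, in each class, the most abundant member, others with a mean of at least 10 FPKM, and those with an unadjusted p under 0.05 or groups that did not overlap, and in each other list the most abundant and any with adjusted p at or under 0.05. Members and lists were chosen with earlier results of these data known. The grouping by own domain or name, which set aside unigenes with other annotations, was made after the annotations were seen. Of the 46 members, 39 have a *M. purpureus* locus tag in their best match, and 0 of these are in the RefSeq gene table at hand, so no coordinates are given. Unigenes are named by their identifier without the TRINITY prefix and library suffix.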

Additional observations from a re-analysis of the deposited data

How the results depend on the processing

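The number of members called at an adjusted p of 0.05 stayed 0 under all alternatives: pseudocounts of 0.1 and 0.01, no filter, a minimum mean of 1 FPKM, quantile normalization, rescaling to TPM, isoforms summed, sample quality weights, the replicate number as a block, members with their own domain or name only (chosen after seeing the data) and each library left out. No list gained a call, and none of the 7 class sums reached the threshold, which a permutation of these libraries cannot do. The number at an unadjusted p under 0.05 by limma was 0 in the report and 5 with sample quality weights (against 10.1% of all tested unigenes). It was 1 with isoforms summed (against 2.46% of all assembled genes). With 1 library left out it was 0 to 4, against 558 to 905 of all 20381 tested unigenes. The number whose groups did not overlap was 4 in the report, against 1306 of all 20381 tested unigenes. With isoforms summed it was 2 of 35, against 1037 of all 16972 assembled genes. With 1 library left out it was higher, since fewer libraries overlap less. It ran from 5 without taurine replicate 3 (against 2679 of all 20381) to 12 without control replicate 1 (against 3576 of all 20381). With 1 library left out, the median log2 fold change lay between -0.079 (without control replicate 1) and 0.041 (without taurine replicate 2). It was 0.061 when libraries were weighted by quality. The sign of the class sum changed for 5 of 7 classes without control replicate 2, and the log2 difference for NADP-specific glutamate dehydrogenase ran from -0.87 without control replicate 1 to 0.34 without control replicate 2. The deviations of same-numbered libraries from their group means were nearly uncorrelated (-0.02, -0.03 and -0.01). With 3 libraries a group, this cannot show whether the replicate numbers pair the libraries. With the replicate block the counts by limma were 0 called and 0 at an unadjusted p under 0.05, and the median was 0.01.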
